A study of Mus musculus with 2 samples.

Results

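Genes of the amino acid response, of serine synthesis and of folate one-carbon metabolism were followed in LM8 cells, a mouse osteosarcoma line that metastasises to the lung. The set held 36 named genes (regulators linked to the transcription factor ATF4, enzymes and transporters of amino acid supply) and the aminoacyl-tRNA synthetase genes whose symbol is a capital letter, "ars" and an optional 1 or 2. Of the named genes 34 had at least 1 probe set annotated to the symbol alone, and so did 23 of the 34 synthetase genes in the mouse gene table, so that 57 of the 12393 genes on the array were members. Mthfd1l, Pycr1 and the remaining 11 synthetase genes were not analysed here.

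The series compared 2 clones of LM8. The hPHD4 clone was stably transfected with full-length human PHD4 cDNA carried by pcDNA3.1, and the control clone with the vector alone. Both were selected in medium with 0.5 mg/ml G418. PHD4 is a prolyl hydroxylase of the endoplasmic reticulum membrane, related to the enzymes that mark the alpha subunits of hypoxia-inducible factor for degradation. Each clone was measured on 1 Affymetrix mouse array from 5 µg of total RNA. Each group is therefore 1 clone and 1 array, so that the transgene and any other difference between the clones cannot be told apart, and no difference below has a replicate, a test or a p-value. The introduced human gene was not checked here. To P4htm, the mouse PHD4 gene, alone 0 probe sets were assigned, so that the cells' own transcript was not read either. RNA came from whole cultures, in which fewer cells of a type and less RNA per cell cannot be told apart.

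Cells that run short of amino acids accumulate uncharged tRNA, which activates the kinase GCN2, the product of Eif2ak4. GCN2 phosphorylates the translation factor eIF2, general protein synthesis slows, and the mRNA of ATF4 is translated more. ATF4, often paired with a C/EBP protein, then induces genes that make, import and charge amino acids. Among its targets are the enzymes that turn a glycolytic intermediate into serine and those that pass the carbon of serine to folate in mitochondria, a supply line on which many tumour cells depend for nucleotides.

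The element through which ATF4 acts at many of these genes has the letters TGATGNAA. It was searched on both strands in the RefSeq promoter windows of assembly GRCm38.p6, each 300 bases long, with 250 before and 50 after the annotated start. Windows were found for 43 of the 57 members. The letters occurred in those of 12 members (27.9%), against 4.51% of all 27025 genes with a window and 2.44% of the 6144 measured genes with one. The narrower form TGATGCAA, which is contained in the first, occurred in 8 members (18.6%), in 1.03% of all genes and in 0.81% of measured genes. The cyclic AMP response element TGACGTCA occurred in 0 members, in 2.03% of all genes and in 3.84% of measured genes. Shares this small give few matches among 43 members. A match describes these letters only and is not evidence of binding. Members were chosen in part for their link to ATF4. The higher share of its element among them thus follows in part from that choice and is not a finding of these data. No window was found for Slc7a5, Cars, Slc7a3, Hars2, Nars, Pars2, Vars, Slc1a5, Cth, Lars, Hars, Wars, Eif4ebp1 and Rars. The stretches around the match are shown for the 6 measured members with a match that begins before the start and the lowest ratio between the clones, and for Yars, the measured member with a match and the highest ratio. Capitals mark the match, each sequence runs 5′ to 3′ on the strand of the gene, and matches that begin with TT are the element read from the opposite strand. The first base of the match lies 103 bases upstream of the start in Pck2, 4 in Slc1a4, 23 in Asns, 15 in Tars, 193 in Chac1 and 102 in Got1, and at base 4 after it in Yars.
Pck2, chr14:55540123-55540210, plus strand: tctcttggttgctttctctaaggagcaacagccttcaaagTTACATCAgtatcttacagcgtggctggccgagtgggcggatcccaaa
Slc1a4, chr11:20332706-20332757, minus strand: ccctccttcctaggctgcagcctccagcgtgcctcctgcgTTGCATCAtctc
Asns, chr6:7693202-7693272, minus strand: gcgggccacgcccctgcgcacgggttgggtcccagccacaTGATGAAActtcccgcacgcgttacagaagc
Tars, chr15:11399651-11399713, minus strand: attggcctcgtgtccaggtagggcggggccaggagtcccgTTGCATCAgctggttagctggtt
Chac1, chr2:119351009-119351096, plus strand: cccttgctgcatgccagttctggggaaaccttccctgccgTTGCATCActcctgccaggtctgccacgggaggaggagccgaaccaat
Got1, chr19:43524660-43524747, minus strand: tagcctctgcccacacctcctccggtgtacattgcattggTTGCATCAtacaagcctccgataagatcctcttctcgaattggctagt
Yars, chr4:129189866-129189913, plus strand: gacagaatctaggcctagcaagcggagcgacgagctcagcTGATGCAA

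Values are log2 MAS5 signals per probe set, and a ratio is the log2 signal in the hPHD4 clone minus that in the control clone. A probe set was taken as measured if both of its signals exceeded the 40th percentile of their array, a floor at a log2 signal of 6.34 in the hPHD4 clone against 6.08 in the control clone. A gene takes the mean ratio of its measured probe sets. Probe sets of the same gene disagreed with a pooled SD of 0.40 in the dim, 0.37 in the middle and 0.28 in the bright of 3 equal groups of measured genes. This SD stands in for an error and leaves out differences between cultures, labelling reactions and arrays.

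Markers of the line's own type were present, and markers of other types differed between the clones. The sums below take each marker at the mean log2 signal of all its probe sets, those under the floor included. Ratios use measured probe sets only. All 8 osteoblast markers on the array were above the floor in both clones, with summed linear signals of 35311 in the hPHD4 clone against 43156 in the control clone. Their ratios split, from −2.15 in Omd to 1.09 in Ibsp. Of 9 leukocyte markers 6 were above the floor in each clone, and Ptprc and Itgam in neither. Their summed signals were 724 and 1463, but without Fcer1g, at a ratio of −3.20, the other 8 summed to 617 and 483, and the measured ones among them lay between 0.00 (Adgre1) and 0.48 (Cd68). Of 7 endothelial markers 3 and 2 were above the floor, with sums of 536 and 459; Vwf was at −0.58 and Kdr at 0.07, and Pecam1, Cdh5, Tek and Tie1 were under the floor in both. Chondrocyte markers summed to 2486 and 1621, with 4 and 3 of 6 above the floor. Col9a1 was at 1.16 and Col2a1 at 0.57, but Sox9 at −0.29. Muscle markers summed to 362 and 1173, with 2 and 4 of 7 above the floor. These sums understate Acta2, whose measured probe set was bright, at log2 signals of 12.39 and 13.89, a ratio of −1.5. Des, the other measured muscle marker, was at 0.42. Epithelial markers, with 2 and 0 of 8 above the floor, summed to 254 and 158, and adipocyte markers, with 0 and 1 of 5, to 59.7 and 197. The part of these differences in the results below was not tested.

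Most members had ratios below 0. Of the 57 members 54 were measured, and 47 of these (87.0%) had a ratio below 0, against 46.4% of all 7452 measured genes. The median ratio of members was −0.19 and that of all measured genes 0.03. Differences were small. In the hPHD4 clone 7 members (13.0%) were lower by 1.5-fold or more, where 5.22% of all measured genes were. By the same threshold 2 members (3.70%) were higher, where 8.94% of all measured genes were. At 2-fold 0 members were lower, against 0.98% of all measured genes, and 1 was higher, against 1.89%. The 7 lower members were Psph, Cth, Pck2, Shmt2, Gpt2, Vars and Mthfd2, and the 2 higher ones were Cbs and Sars2. The lowest 25% of all measured genes, at or below −0.20, held 26 members, and the highest 25%, at or above 0.29, held 3. Of 97 measured probe sets of members 73 (75.3%) lay below 0, against 47.1% of all 11659 measured probe sets. In 14 of the 27 members with several measured probe sets all of them lay below 0, in 1 all lay above 0, and in 12 the signs differed; over all such genes 24.5% had every probe set below 0.

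Brightness moved with the ratio, and its part in the result was not tested. In the bright group the median of all genes was −0.03 and 53.9% lay below 0; 28 of the 30 members there lay below 0, with a median of −0.21. In the middle group the median of all genes was 0.02 and 47.4% lay below 0. There 14 of 16 members lay below 0, with a median of −0.20. In the dim group all genes had a median of 0.13 and 37.8% lay below 0. There 5 of 8 members lay below 0 and their median was −0.08. All 7 members at least 1.5-fold lower were in the bright and middle groups, and both higher ones were in the dim group. Of all dim genes 16.3% were at least 1.5-fold higher, against 7.17% of middle and 3.38% of bright ones. At least 1.5-fold lower were 5.52% of dim, 5.72% of middle and 4.43% of bright genes.

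**Figure D1:**
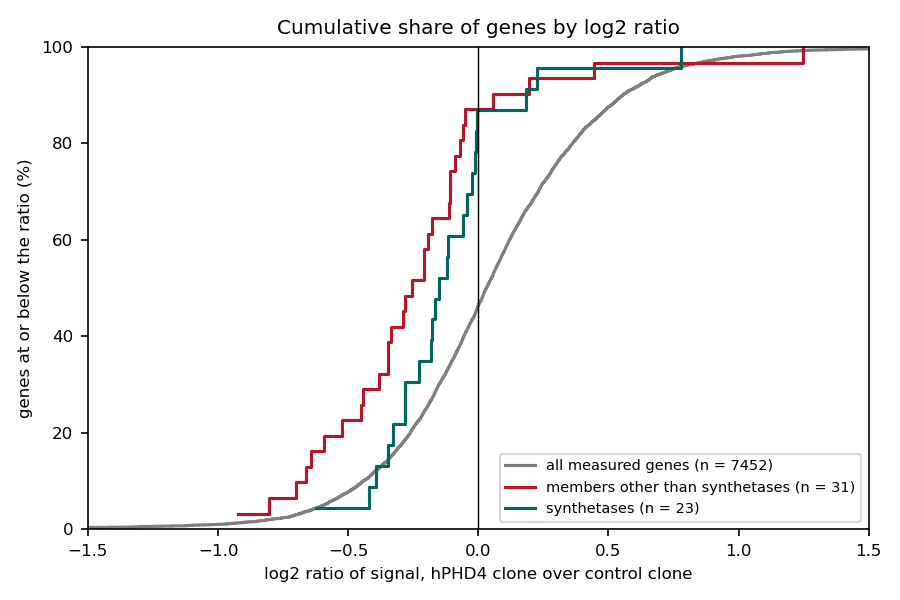
Cumulative share of genes (y axis, %) by log2 ratio of signal, hPHD4 clone over control clone (x axis), for all 7452 measured genes (grey), 31 measured members other than synthetases (red) and 23 synthetases (green). Both member curves lie to the left of the grey curve over most of the range, and 87.1% of the red and 87.0% of the green genes lie below 0.

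Serine is made from a glycolytic intermediate in 3 steps, by the products of Phgdh, Psat1 and Psph. Of these genes the last stood farthest from the control clone. Psph, the phosphatase that releases serine, had log2 signals of 10.65 in the hPHD4 clone against 11.57 in the control clone, linear signals of 1608 and 3046. Its ratio of −0.92, 1.90-fold lower, was the lowest of all members and the 96th lowest of all measured genes, and it rests on 1 probe set. Psph lies on chromosome 5, whose measured genes had a median of −0.19, and relative to that median it was at −0.73. Phgdh, the first enzyme, had mean log2 signals of 12.10 and 12.19, with ratios of −0.29, −0.07, −0.06 and 0.06 on its 4 probe sets and a mean of −0.09. All 4 are of the type that may match other transcripts as well, and 2 further probe sets shared with a second symbol were not used. Psat1, the aminotransferase in between, had 1 probe set at −0.54 and 1 at 0.19. Its mean ratio of −0.18 was within the disagreement of its own probe sets, an SD of 0.52, and the brighter probe set alone puts the gene at 0.19. Only Psph of the 3 therefore differed by more than the spread between probe sets.

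The folate enzymes that take up the carbon of serine had ratios below 0 in all 4 measured genes, with a median of −0.52. Of the 4, 2 were at least 1.5-fold lower, 1 of them just past the threshold. Among all measured genes 46.4% lay below 0 and 5.22% were at least 1.5-fold lower. Shmt2, the mitochondrial serine hydroxymethyltransferase, had mean log2 signals of 9.08 in the hPHD4 clone against 9.74 in the control clone. Its 4 probe sets lay at −0.92, −0.77, −0.74 and −0.21, and the gene was 1.58-fold lower, a ratio of −0.66. Mthfd2, the mitochondrial dehydrogenase and cyclohydrolase next in the path, had mean log2 signals of 10.78 and 11.37, with ratios of −0.66 and −0.52 on its 2 probe sets and a mean of −0.59, 1.51-fold lower. That is just past the threshold, and Mthfd2 lay within 1.5-fold after quantile normalization, loess correction or with its brightest probe set. These are the enzymes of the mitochondrial branch, and for both genes every probe set was lower in the hPHD4 clone.

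The cytosolic counterparts lay closer to the control clone, although the difference between the branches was not tested. Shmt1, the cytosolic hydroxymethyltransferase, had mean log2 signals of 8.90 and 9.35 and a mean ratio of −0.45. Its probe sets ranged from −0.85 to 0.02, and the brightest of the 4 was the one at 0.02. Mthfd1, the cytosolic enzyme that interconverts folate forms, had mean log2 signals of 9.62 and 9.91 and probe sets at −0.69, −0.18 and 0.01, with a mean of −0.29. The SD between the probe sets of a gene was 0.36 for Shmt1 and 0.36 for Mthfd1, so that Mthfd1 lay within its own disagreement.

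**Figure D2:**
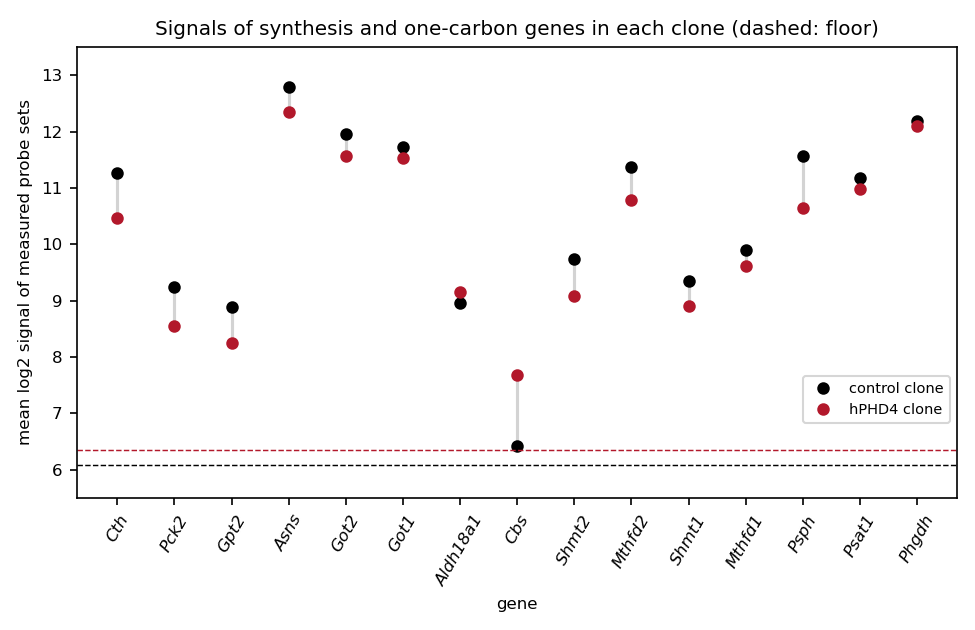
Mean log2 signal of the measured probe sets (y axis) of 15 genes of amino acid metabolism, folate one-carbon metabolism and serine synthesis (x axis, in that order) in the control clone (black) and the hPHD4 clone (red), 1 array each; dashed lines are the floors at 6.34 and 6.08. The red point lies below the black one for 13 genes, and above it for Aldh18a1 and for Cbs, whose control signal is near the floor.

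Among other enzymes of amino acid metabolism 6 of 8 measured genes (75%) lay below 0, against 46.4% of all measured genes. The median ratio of the 8 was −0.41. Cth, the lyase that releases cysteine from cystathionine, had log2 signals of 10.46 in the hPHD4 clone against 11.26 in the control clone on 1 probe set. It was 1.75-fold lower, a ratio of −0.80 against an SD of 0.28 between probe sets of genes of its brightness. Pck2, the mitochondrial phosphoenolpyruvate carboxykinase, had mean log2 signals of 8.55 and 9.25, and its 2 probe sets agreed at −0.75 and −0.65. Its mean ratio of −0.70 made it 1.62-fold lower.

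Gpt2, the mitochondrial alanine aminotransferase, had mean log2 signals of 8.25 and 8.90 and was 1.56-fold lower, with probe sets at −0.84, −0.81 and −0.28. A floor at the 60th percentile put it at −0.56, within 1.5-fold. Asns, the asparagine synthetase and a classical ATF4 target, had mean log2 signals of 12.35 and 12.79. Its probe sets at −0.50 and −0.39 put it 1.36-fold lower, under the 1.5-fold threshold but with an SD of 0.08 between them. The aspartate aminotransferases were nearer to 0, the mitochondrial Got2 at −0.38 (probe sets at −0.60 and −0.16) and the cytosolic Got1 at −0.19. Got1 lies on chromosome 19, whose measured genes had a median of 0.31, and relative to that median it was at −0.50.

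Aldh18a1 and Cbs lay on the other side. Aldh18a1, which starts proline synthesis from glutamate, also lies on chromosome 19 and had a mean ratio of 0.20 over 5 probe sets that ranged from −0.16 to 0.73. Relative to the median of that chromosome, 0.31, Aldh18a1 was at −0.11, on the same side as most members. Cbs, the synthase that makes the cystathionine cleaved by Cth, had log2 signals of 7.68 in the hPHD4 clone against 6.43 in the control clone. It was 2.37-fold higher on its only measured probe set, the highest ratio of all members at 1.25, but its linear control signal of 86.1 was close to the floor of 67.8. A second probe set of Cbs was under the floor in both clones, at 3.64 and 5.02. The 2 genes of the path from homocysteine to cysteine thus had ratios of opposite sign, 1 of them dim.

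Of 9 amino acid transporters on the array 7 were measured. None of the 7 was past 1.5-fold in either direction, where 5.22% of all measured genes were lower and 8.94% higher. Ratios of the 7 were all below 0, against 46.4% of all measured genes, with a median of −0.21. Slc1a4, a carrier of alanine, serine and cysteine, had mean log2 signals of 8.21 in the hPHD4 clone against 8.73 in the control clone and was 1.44-fold lower, with probe sets at −0.84, −0.54 and −0.19. Relative to the median of its chromosome it was at −0.59, past the 1.5-fold threshold. Slc6a9, the glycine transporter GlyT1, was at −0.35, with probe sets at −0.65 and −0.04, and the neutral amino acid carrier Slc38a2 was at −0.34. The subunits of the leucine exchanger, Slc7a5 and Slc3a2, were at −0.21 and −0.11, the cationic carrier Slc7a3 at −0.07 and the glutamine carrier Slc1a5 at −0.05, all on 1 probe set each. The ratios of Slc7a5, Slc3a2, Slc7a3 and Slc1a5 were smaller than the spread between probe sets. Slc3a2 lies on chromosome 19, and relative to its median of 0.31 the gene was at −0.42. That is beyond the SD of 0.28 between probe sets of genes of its brightness. Slc7a11, the cystine importer, was just under the floor in both clones at 6.33 and 6.03, and the arginine carrier Slc7a1 was under it at 5.23 and 5.51. For neither was a ratio taken.

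The regulators and stress effectors lay close to the control clone, with a median ratio of −0.11 over 9 measured genes, 7 below 0 and 0 past 1.5-fold. Of all measured genes 46.4% lay below 0, 5.22% were at least 1.5-fold lower and 8.94% higher. Atf4 itself had mean log2 signals of 11.72 and 11.83, with probe sets at −0.37 and 0.15 and a mean of −0.11. That is within their SD of 0.37, and relative to the median of chromosome 15 the gene was at 0.00. The probe set at 0.15 is of the type that may match other transcripts as well. The brighter probe set, with log2 signals of 12.80 and 13.17, is the one at −0.37, and it alone puts the gene there. That is beyond the SD of 0.28 between probe sets of genes of its brightness. A floor at the 20th percentile put Atf4 at −0.33. Eif2ak4, the sensor kinase, was at 0.05, with log2 signals of 7.08 and 7.02. Ddit3, the stress-induced factor CHOP, had log2 signals of 8.86 and 8.97 and a ratio of −0.11. By gene means, the mRNAs of the sensor and of both transcription factors therefore differed by less than the spread between probe sets. An array reads mRNA only, and neither ATF4 protein nor eIF2 phosphorylation was measured.

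Effectors induced through ATF4 lay below 0 as well. Trib3, a pseudokinase that feeds back on ATF4, had mean log2 signals of 8.83 and 9.17, with probe sets at −0.38 and −0.32 and a mean of −0.35. Chac1, which degrades glutathione, had log2 signals of 9.48 and 9.74 and a ratio of −0.25. Sesn2, a leucine sensor upstream of mTORC1, was at −0.28, and Eif4ebp1, the repressor of cap-dependent translation, at −0.21 with probe sets from −0.48 to 0.26. The ratios of Trib3, Chac1, Sesn2 and Eif4ebp1 were each smaller than the SD between probe sets of genes of their brightness. Of the C/EBP partners, Cebpb was at −0.06 and Cebpg at 0.45, with probe sets at 0.13 and 0.76. Cebpg had the highest ratio of the group, and its SD of 0.45 was as large as the ratio. Vegfd, a lymphatic growth factor included in the set, had log2 signals of 6.20, 5.97 and 5.90 on its 3 probe sets in the hPHD4 clone, under the floor, against 6.16, 6.95 and 6.26 in the control clone, above the floor there. No ratio was taken.

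**Figure D3:**
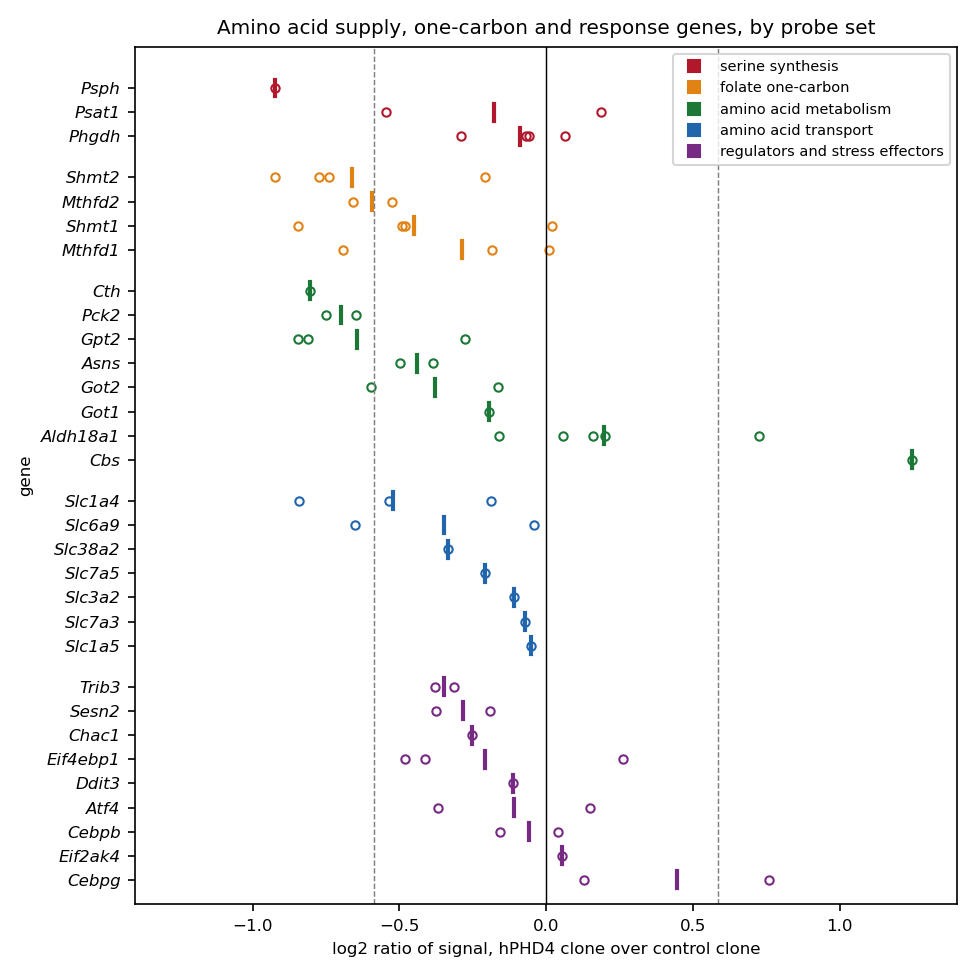
Log2 ratio of signal, hPHD4 clone over control clone (x axis), for 31 measured members other than synthetases (y axis) by role; circles are probe sets, bars the mean of a gene, and dashed lines mark 1.5-fold. Bars of 27 genes lie left of 0, those of 6 past the left dashed line (Psph, Shmt2, Mthfd2, Cth, Pck2 and Gpt2), and that of Cbs past the right one.

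Aminoacyl-tRNA synthetases load each tRNA with its amino acid. All 23 on the array were measured, and few differed by much: 1 (4.35%) was lower and 1 higher by 1.5-fold or more, against 5.22% and 8.94% of all measured genes. Ratios lay below 0 in 20 (87.0%), with a median of −0.15. The other 31 measured members had a median of −0.25, with 6 at least 1.5-fold lower; the difference from the synthetases was not tested. Grouped by symbol alone, the 15 genes with a symbol not ending in 2, called cytosolic here, had a median of −0.12, with 13 below 0. The 8 with a symbol ending in 2, called mitochondrial here, had a median of −0.17, with 7 below 0. Where each product acts was not checked.

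Vars, which charges valine, was the lowest synthetase. It had log2 signals of 9.88 in the hPHD4 clone against 10.50 in the control clone, a ratio of −0.62 or 1.54-fold lower on 1 probe set. It lies on chromosome 17, whose measured genes had a median of −0.17, and relative to that it was at −0.45, within 1.5-fold. Tars, for threonine, followed with 10.80 and 11.22, a ratio of −0.42. The mitochondrial arginine enzyme gene Rars2 had log2 signals of 10.21 and 10.61 and a ratio of −0.39. Sars, for serine, had mean log2 signals of 10.79 and 11.14 and had a ratio of −0.35, with its 2 probe sets at −0.35 and −0.34.

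At the other end stood Sars2, the mitochondrial serine enzyme, with log2 signals of 8.20 in the hPHD4 clone against 7.43 in the control clone. It was 1.71-fold higher, a ratio of 0.78 on 1 probe set, against an SD of 0.40 between probe sets of genes of its brightness. The cytosolic and mitochondrial serine enzymes therefore lay on opposite sides of 0. Yars, for tyrosine, had log2 signals of 9.95 and 9.72 and a ratio of 0.23, and Cars, for cysteine, had 9.87 and 9.69 and a ratio of 0.18. Relative to the median of chromosome 7, at 0.19, Cars was at 0.00. A second probe set of Cars was under the floor in the hPHD4 clone at 6.27 and in the control clone at 4.35; a floor at the 20th percentile let it in, and the ratio became 1.05. Tars2 was next at −0.01, with probe sets at −0.17 and 0.15. Wars, for tryptophan, had 4 probe sets from −0.62 to 0.32 and a mean of −0.02. The other 14 synthetases lay between −0.33 (Lars) and −0.01 (Rars).

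**Figure D4:**
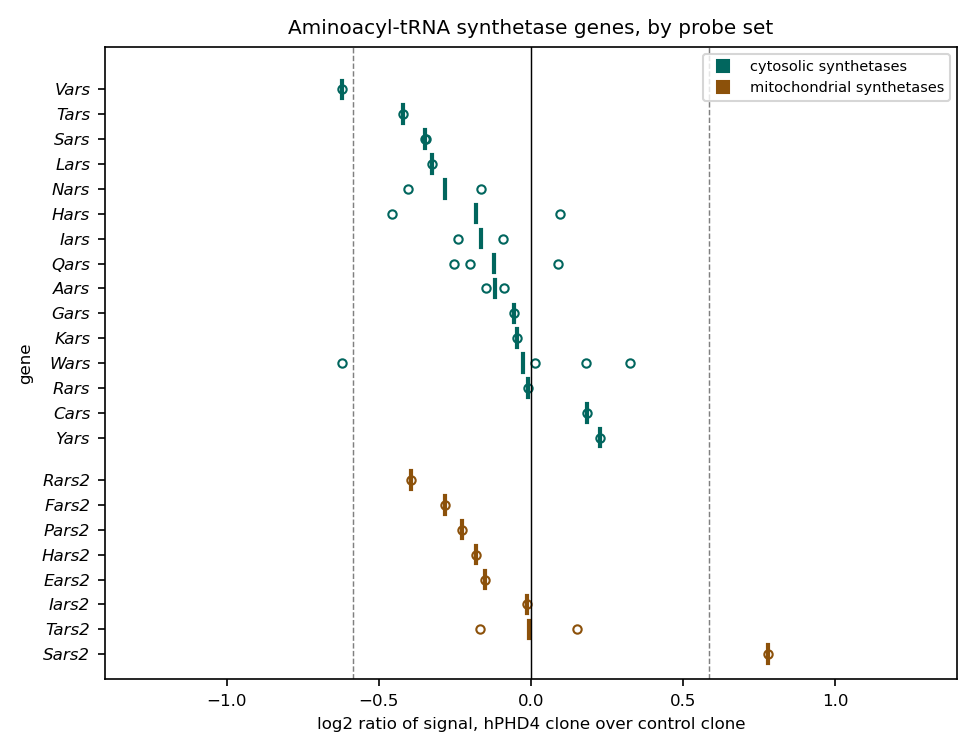
Log2 ratio of signal, hPHD4 clone over control clone (x axis), for 15 cytosolic and 8 mitochondrial synthetase genes (y axis), grouped by symbol alone. Circles are probe sets, bars the mean of a gene, and dashed lines mark 1.5-fold. Bars of 20 genes lie left of 0, only Vars passes the left dashed line, and only Sars2 the right one.

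Members with and without the ATF4 element letters in the promoter window overlapped. The 11 measured members with TGATGNAA had a median ratio of −0.25, from −0.70 in Pck2 to 0.23 in Yars, with 10 below 0. The 29 measured members with a window and no match had a median of −0.15, from −0.92 in Psph to 1.25 in Cbs, with 24 below 0. With the narrower TGATGCAA the medians were −0.19 over 7 and −0.18 over 33 members, so that the larger gap depended on the form of the letters searched.

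Related genes outside the set were read in the same way. Other genes of aminoacylation, such as the non-catalytic partners of the synthetases, had a median ratio of −0.13 over 10 measured genes. Of these 7 (70%) lay below 0, against 46.4% of all measured genes. Past 1.5-fold were 0, against 5.22% of all measured genes lower and 8.94% higher. Aimp1 was at −0.26 and Aarsd1 at −0.25, Farsb at 0.26 and Aimp2 at 0.20. Other genes of the folate, glycine and methionine cycles had a median of 0.02 over 11, with 5 below 0. At least 1.5-fold lower was 1 of these genes (9.09%), against 5.22% of all measured genes. It was Slc19a1, the reduced folate carrier, at −0.66. Ggh was at −0.49, while Mat2b and Mtrr were at 0.39 and 0.36. Other genes of the integrated stress response lay the opposite way, with a median of 0.23 over 16 and 11 above 0. Below 0 were 31.25% of them, against 46.4% of all measured genes. Of the 16, 2 (12.5%) were at least 1.5-fold higher and 1 (6.25%) lower, against 8.94% and 5.22% of all measured genes. Xbp1, of the unfolded protein response, was at 1.21 and Atf3 at 0.74, while Impact, an inhibitor of GCN2 signalling, was at −0.71 and Ddit4 at −0.33. Atf3 rests on 1 probe set, whose control signal of 6.14 was close to the floor of 6.08. Eif2ak3, the kinase PERK that acts on eIF2 from the endoplasmic reticulum, was at 0.47.

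Processing choices left the direction of the group medians in place. Under 9 alternatives of scaling, floor, filter, probe sets and chromosome the median ratio of members stayed between −0.23 and −0.18, and all 7 group medians stayed below 0. 49 of 54 members lay below 0 relative to the median of their chromosome, against 49.9% of all measured genes. Again 7 members were at least 1.5-fold lower, against 5.06% of all measured genes, with Slc1a4 in the place of Vars.

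**Figure D5:**
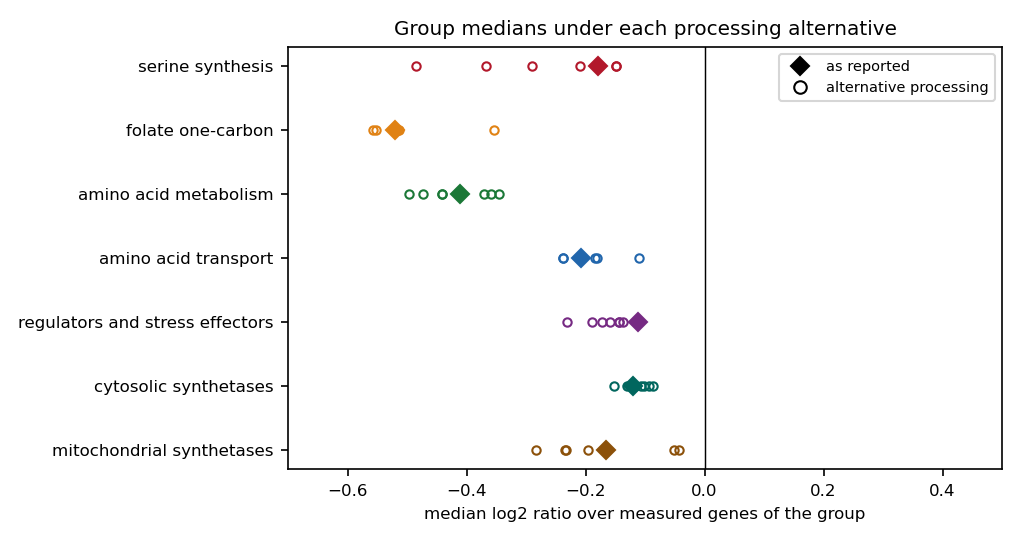
Median log2 ratio over the measured genes of each of 7 groups (y axis) as reported (diamonds) and under 9 processing alternatives (circles). All medians lie below 0, from −0.56 in the folate group to −0.04 in the mitochondrial synthetases.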

How the data were processed

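The authors deposited log2 signals, which come from MAS5 according to the submitters' processing notes; its version and settings are not stated there, and detection calls were not used here. Log base and scaling were read from the values: as powers of 2, both arrays had a mean of 499.9 after 2% was trimmed at each end. Such scaling to 1 target makes every ratio relative to the array's mean. Of 22690 probe sets per array, 20380 non-control ones had 1 symbol, and genes were named through the platform annotation and a GRCm38.p6 gene table. No further scaling was applied. The floor, the gene means and the 1.5-fold counts were computed in Python 3.11.15 with pandas 2.3.3, and the loess alternative (span 0.3) with statsmodels 0.14.6. The steps were tested on simulated data, with shifts larger than the ratio of any lower member and only in genes well above the floor. Such a test checks the computation and does not bear on calls near 1.5-fold.

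The members and gene lists were chosen with earlier results of these data known, and the promoter search and the leukocyte sum without Fcer1g were added after seeing the data. Named were all members past 1.5-fold, all serine and folate genes, Atf4, Ddit3, Asns, Chac1, Trib3, Eif2ak4, the 4 highest and 4 lowest synthetases, and up to 2 genes at each end of a related list; Eif2ak3 and some others were named after their values were seen.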

Additional observations from a re-analysis of the deposited data

How the results depend on the processing

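With 1 array per clone no alternative has a replicate behind it; the number of arrays limits the precision. At a 2-fold threshold 0 members were lower and 1 was higher (Cbs), against 0.98% and 1.89% of all measured genes. At 1.5-fold, higher members numbered 1 of 46 with the floor at the 60th percentile, where 4.71% of all genes measured were as high. There Cbs and Sars2 were no longer measured and Cebpg passed. Once probe sets of the types _x_at and _s_at were left out 1 member (Sars2) was higher, against 9.11% of all genes. With the floor at the 20th percentile 3 were higher, against 16.4%, and with the brightest probe set 3, against 9.51%. A floor at the 20th percentile gave medians of −0.23 for regulators and stress effectors and −0.042 for mitochondrial synthetases. After subtraction of chromosome medians that of serine synthesis was −0.48. At 1.5-fold, lower members numbered between 6 and 8 under every alternative, out of 46 to 57 measured members. The share of all genes as low ranged from 3.06% (no filter) to 6.64% (20th percentile floor). Of 220 values of named members under alternatives 215 moved by less than the SD of 0.35 between probe sets. The others were Cars at 1.05 (20th percentile floor), Cbs at 0.62 (no filter), Psat1 at 0.19 in 2 settings and Shmt1 at 0.02 (brightest probe set). No paired analysis was possible because each clone has 1 array.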

Other observations

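Enzymes and carriers of amino acid metabolism outside the set lay on both sides of 0. Of 12 measured enzymes 5 lay below 0 and the median ratio was 0.25. Glul, the glutamine synthetase, had the lowest ratio of these 12, with log2 signals of 6.63 in the hPHD4 clone, near the floor of 6.34, and 8.25 in the control clone, a ratio of −1.61 on 1 probe set. Bckdhb, of branched-chain amino acid breakdown, was at −0.34, while its partner Bckdha was at 0.50. At the upper end were the aminotransferases Gpt at 0.54 and Bcat2 at 0.51. Gpt2, the mitochondrial counterpart of Gpt, had a ratio of −0.64. Of 7 other amino acid transporters 3 lay below 0, with a median of 0.01; Slc6a15 was at −0.55 and the taurine carrier Slc6a6 at 0.63.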
